A study of Mus musculus with 6 samples.

Results

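The genes of glycolysis and glycogen metabolism were followed in the gastrocnemius, a calf muscle made mostly of fast fibres, of old mice given farnesol or its vehicle. The set held 34 listed gene symbols, chosen by name for their known roles and found by symbol among the 23238 symbols of the count tables. All 34 were present and 32 had enough counts to be tested, among 11674 genes tested in all. The muscles came from wild-type mice of the strain labelled C57/BL6J, aged 26 months. One group (n = 3 libraries) received farnesol, a sesquiterpene alcohol, at 350 mg/kg by mouth for 30 days. The other (n = 3) received the vehicle, saline with 5% DMSO, over the same time. All animals were thus old, and no young group enters any comparison. The labels call the libraries biological replicates but do not state 1 animal for each, and the spread behind every p-value is that among these 6 libraries.

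Glycolysis splits glucose into pyruvate in the cytosol and yields ATP without oxygen, and lactate dehydrogenase turns the pyruvate into lactate. Fast muscle fibres rely on it for short bursts of work and keep glucose in store as glycogen, a branched polymer built by glycogen synthase and taken apart by glycogen phosphorylase when calcium or adrenaline activates phosphorylase kinase. Most steps have a muscle isoenzyme (Pfkm, Pgam2, Eno3, Pygm) beside forms found in many tissues (Pfkl, Pfkp, Pgam1, Eno1).

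Libraries held 9895700 to 12707751 counts, of which the 34 members took 2.93% to 3.92%. The ribosomal RNA precursor Rn45s took 4.97% of counts in farnesol replicate 1 and 9.92% to 15.4% in the other 5 libraries. Levels are given as CPM, counts scaled to library size in parts per 1e6 with trimmed-mean (TMM) factors. The factor was 1.14 for vehicle replicate 3, the largest, and 0.905 to 1.11 for the other 5 libraries. Skeletal muscle markers were abundant in every library, for example the muscle creatine kinase Ckm at 8970 to 13218 CPM and the fast troponin Tnnt3 at 8953 to 15986 CPM. Vehicle replicate 3 stood apart: its 13 fast fibre markers summed to 111366 CPM against 142242 to 165876 CPM in the other 5 libraries, and its 10 macrophage markers to 301 CPM against 147 to 218 CPM. Of the 10 macrophage markers 9 had a log2 fold change below 0 (farnesol against vehicle). All 8 adipocyte markers had one above 0, and their summed level was 224 to 415 CPM in vehicle and 331 to 507 CPM in farnesol libraries. The 7 erythroid markers summed to 3501 to 5684 CPM and to 5472 to 9725 CPM. The part of these differences in the results below was not tested.

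No member differed between farnesol and vehicle beyond the spread of the libraries. In edgeR's quasi-likelihood test 0 of the 32 members tested passed an adjusted p of 0.05 (smallest adjusted p = 0.99999), where 0% of all genes tested passed. Likewise 0 members had an unadjusted p under 0.05, where 3.01% of all genes did. DESeq2 and limma-voom also gave 0 members under either threshold, and edgeR without the filter on low counts gave 1, Pfkfb3, under the unadjusted one. In 3 of the 6 fits with 1 library left out a single member also came under the unadjusted threshold: Pfkfb3 without vehicle replicate 2, Gbe1 without vehicle replicate 3 and Fbp2 without farnesol replicate 1. In 0 of the 32 did the 3 farnesol values lie apart from the 3 vehicle values, where 8.82% of all genes did. The fitted log2 fold changes of farnesol against vehicle ran from −0.54 to 0.31 with a median of 0.02, beside a median of −0.01 over all genes tested. Of the members, 17 stood above 0 and 15 below, 53.1% above, and over all genes 49.1% stood above. For 28 of the 32 the log2 fold change was smaller than 0.25 in either direction.

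The precision of these values differed between members. Their median standard error was 0.17 on the log2 scale, against 0.29 over all genes tested. For 23 of the 32 members the 95% interval of the fold lay within a 1.5-fold change in either direction, which held for 3348 of the 11674 genes. For the other 9 the interval reached past 1.5-fold on at least 1 side, so a change of that size lay within it. These 9 were Hk1, Pfkl, Pfkp, Pgam1, Pfkfb1, Pfkfb3, Fbp2, Gbe1 and Ppp1r3c.

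**Figure D1:**
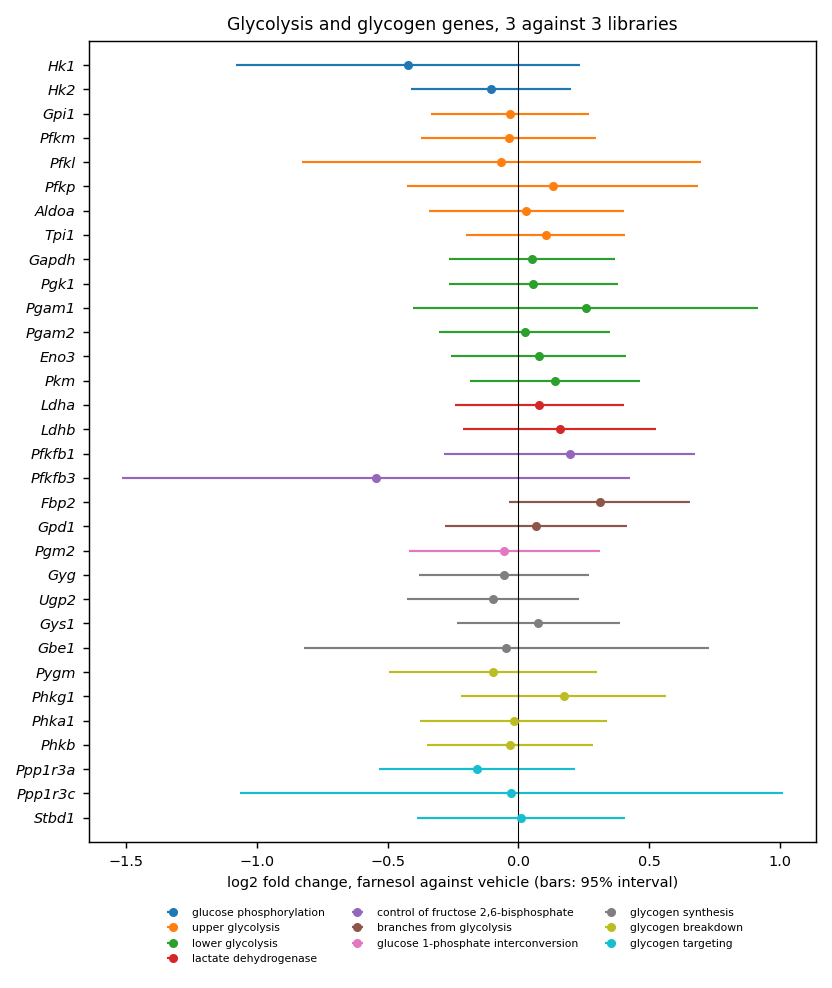
Log2 fold changes of the 32 tested members (points) with their 95% intervals (bars), farnesol against vehicle on the x axis and genes in the order of the pathway on the y axis, coloured by role. Every interval spans 0, and the widest belong to Ppp1r3c and Pfkfb3.

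Levels of different genes were ranked per length, as CPM per kb of the longest coding transcript in the GENCODE annotation. How far the counts grow with transcript length depends on the kit and was not tested. Shares of counts, here and for the isoenzymes below, were not divided by length and serve to compare libraries. On this scale the aldolase Aldoa (chromosome 7, 126795234 to 126800994, mm10) was the most abundant member, with a mean level of 8422 CPM per kb over the 6 libraries. The glycogen phosphorylase Pygm (chromosome 19, 6384408 to 6398464) followed at 2270, the phosphoglycerate mutase Pgam2 at 1760 and the muscle enolase Eno3 at 1548 CPM per kb. The order depends on the division by length: in plain CPM, Eno3 (means of 2356 with vehicle and 2487 with farnesol) stood above Pgam2 (1466 and 1491). The lowest tested members were forms found in many tissues, the hexokinase Hk1 at 1.89, the phosphofructokinases Pfkl at 2.23 and Pfkp at 3.18, and the mutase Pgam1 at 5.40 CPM per kb. In counts, Aldoa alone took 35.2% to 41.4% of all member counts in a library and Pygm 16.9% to 22.2%.

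**Figure D2:**
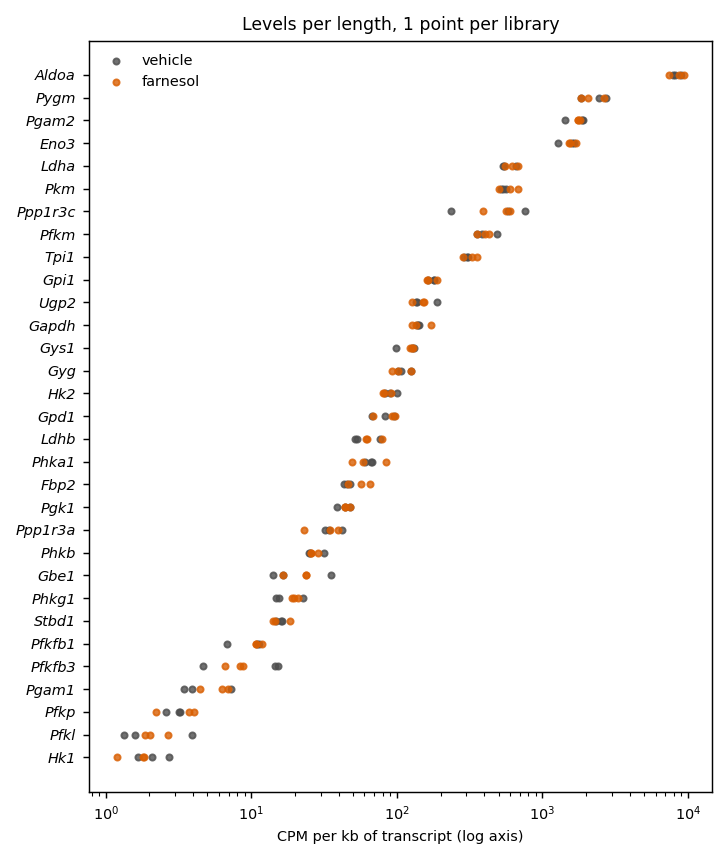
Level of the 31 tested members with a transcript length in CPM per kb of transcript (x axis, log scale), 1 point per library, grey for vehicle and orange for farnesol, genes ordered by their mean on the y axis. Levels span from 1.89 CPM per kb for Hk1 to 8422 for Aldoa, and grey and orange points overlap in every row.

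Some of these levels are uncertain because stretches of the transcript also occur in other genes. In the longest coding transcript of Gapdh, the glyceraldehyde 3-phosphate dehydrogenase often used as a reference gene, 82.5% of all 50-base windows also occur in a transcript of another annotated gene. The share was 72.2% for Eno1, 68.0% for Pgk1, 41.5% for Pgam1, 34.4% for Pkm, 27.0% for Ldhb, 25.3% for Gpi1, 25.0% for Phkg1, 17.1% for Pfkp and 16.6% for Ldha. Windows were matched on either strand. For Phkg1 the gene that shared most was Sumf2 and for Pfkp it was Pitrm1, which belong to other families. Exons of Sumf2 on the opposite strand overlap 9.68% of the exon bases of Phkg1. Those of Pitrm1 overlap 5.58% of the exon bases of Pfkp in the same way. The share of windows was 13.5% for Aldoa, 0.460% for Pygm and 0% for Pfkm, Pgam2, Eno3, Fbp2, Gbe1, Ppp1r3a and Ppp1r3c. Even so, exons of another annotated gene on the same strand overlapped 10.2% of all exon bases of Pfkm, and 15.3% of those of Pkm. How the authors treated reads with several matches is not given in the sources used here. Exons on the opposite strand overlapped 13.0% of the exon bases of Gpd1 and 11.5% of those of Gpi1, and strand handling is not given either.

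The first step, the trapping of glucose as its phosphate, is made by the hexokinases. Hk2, the form that dominates in insulin-responsive muscle, was measured at 455, 493 and 558 CPM in the vehicle libraries and at 446, 452 and 504 CPM in the farnesol libraries. The highest value was that of vehicle replicate 3 and the groups overlapped (log2 fold change −0.10, SE 0.15). Hk1 (chromosome 10, 62268855 to 62379920), the form of brain and red cells, stood at 8.92, 7.18 and 11.6 CPM with vehicle and at 5.11, 7.87 and 7.74 CPM with farnesol. Its fitted log2 fold change of −0.42 (SE 0.32) came with a 95% interval of the fold from 0.473 to 1.18. The libraries held 88.0 counts of it on average. Vehicle replicate 3 held the highest value and farnesol replicate 1 the lowest, and with 1 library left out the log2 fold change ran from −0.57 (vehicle replicate 2) to −0.22 (vehicle replicate 3). The erythroid markers summed to 9725 CPM in farnesol replicate 1, where Hk1 was lowest, and to 4456 CPM in vehicle replicate 3, where it was highest. Their lowest sum, 3501 CPM, was in vehicle replicate 1, with Hk1 at 8.92 CPM. The part of red cells in the Hk1 values was not tested.

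In upper glycolysis, Pfkm, the muscle phosphofructokinase that sets the committed step, lay at 1107, 1400 and 1019 CPM in vehicle and 1032, 1242 and 1163 CPM in farnesol libraries. The farnesol values lay inside the vehicle range (log2 fold change −0.04, SE 0.16). Aldoa, which splits fructose bisphosphate, lay at 13852, 12590 and 12281 CPM and at 14565, 13421 and 11568 CPM. The highest and the lowest of the 6 values were both farnesol libraries (0.03, SE 0.18). Gpi1, the glucose phosphate isomerase, and Tpi1, the triose phosphate isomerase, had log2 fold changes of −0.03 and 0.11 (SE 0.15 for both). The minor phosphofructokinase Pfkl (chromosome 10, 77986947 to 78009807) was at 5.94, 4.96 and 14.6 CPM with vehicle and 6.96, 9.96 and 7.53 CPM with farnesol. The vehicle libraries bracketed all farnesol libraries, and leaving out vehicle replicate 3, the highest, took its log2 fold change from −0.06 to 0.58 (edgeR adjusted p = 0.9997). Pfkp was at 9.21 to 16.7 CPM over all libraries (0.13, SE 0.27).

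All 6 tested genes of lower glycolysis had log2 fold changes above 0, between 0.02 and 0.26 with a median of 0.07, and none passed. The count was the same with each other scaling, and 5, 4 and 5 of the 6 without vehicle replicate 1, vehicle replicate 3 or farnesol replicate 1. Pkm, the pyruvate kinase, stood at 1368, 1301 and 1273 CPM in vehicle and at 1650, 1460 and 1235 CPM in farnesol libraries. Farnesol replicates 1 and 2 lay above all vehicle libraries and farnesol replicate 3 below them (log2 fold change 0.14, SE 0.16, and 0.04 without farnesol replicate 1). Eno3 stood at 2488, 2577 and 2004 CPM and at 2643, 2422 and 2396 CPM (0.08, SE 0.16), and Pgam2 at 1579, 1610 and 1211 CPM and at 1484, 1520 and 1469 CPM (0.02, SE 0.16). In both genes vehicle replicate 3 was the lowest library. Gapdh lay at 202, 195 and 198 CPM and at 245, 192 and 180 CPM (0.05, SE 0.15), so that the 3 vehicle values lay inside the farnesol range. Pgk1, the phosphoglycerate kinase, gave 0.06 (SE 0.16). Pgam1, at 6.998, 6.17 and 13.0 CPM and at 12.3, 11.1 and 7.95 CPM, gave 0.26 (SE 0.32). With 1 library left out this ran from 0.064 (vehicle replicate 2) to 0.67 (vehicle replicate 3, edgeR adjusted p = 0.9997). Eno1 was listed at 0 in all 6 libraries. A count of 0 allows up to 3 counts, or 0.251 to 0.310 CPM, for counting error only, and its near-identical copy Eno1b was listed on 2 rows that summed to 9.32 to 18.1 CPM.

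Lactate dehydrogenase is a tetramer of a muscle-type subunit (Ldha), which favours lactate formation, and a heart-type subunit (Ldhb). Ldha was measured at 997, 1202 and 972 CPM with vehicle and 1115, 1237 and 999 CPM with farnesol (log2 fold change 0.08, SE 0.16). Ldhb was measured at 69.8, 100.5 and 67.7 CPM and at 80.6, 103.8 and 81.2 CPM (0.16, SE 0.18). In both genes the second replicate of each group was the highest of its group. Ldhb made up 6.54%, 7.72% and 6.51% of the counts of this pair in vehicle and 6.74%, 7.74% and 7.52% in farnesol libraries, a mean of 6.92% ± 0.686 (SD, n = 3) against 7.33% ± 0.526 with overlapping ranges. Slow fibre markers, which accompany Ldhb in muscle, summed to 2082, 2196 and 1545 CPM in vehicle and 1960, 3014 and 1975 CPM in farnesol libraries. Only farnesol replicate 2 lay above the vehicle range. The part of slow fibres in the Ldhb share was not tested.

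The other isoenzyme shares overlapped between the groups as well. Hk1 was 1.44% to 2.04% of the hexokinase counts in vehicle and 1.13% to 1.71% in farnesol libraries. Pfkm held 97.3% to 98.9% of the phosphofructokinase counts and Pgam2 98.9% to 99.6% of those of the mutases over all 6 libraries. The lowest share of both muscle forms was that of vehicle replicate 3.

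The bifunctional enzymes of the Pfkfb family make and remove fructose 2,6-bisphosphate, the strongest activator of phosphofructokinase. Pfkfb3 (chromosome 2, 11471430 to 11554071), the widely expressed inducible form, had the most negative fitted change of all members. It was measured at 73.6, 22.5 and 70.2 CPM in the vehicle libraries and at 40.4, 31.8 and 41.998 CPM in the farnesol libraries. The vehicle group held the 2 highest values and the lowest, so that the farnesol values lay inside its range. This gave a log2 fold change of −0.54 (SE 0.41), and the 95% interval of the fold ran from 0.349 to 1.35. Its size depended on the vehicle libraries used. Leaving out vehicle replicate 2 gave −0.92 (edgeR adjusted p = 0.194), leaving out vehicle replicate 1 gave −0.29 and leaving out vehicle replicate 3 gave −0.34. Without the filter on low counts, edgeR's adjusted p was 0.968. Pfkfb1, of liver and muscle, stood at 12.8, 21.1 and 20.4 CPM and at 22.0, 20.1 and 20.2 CPM (0.20, SE 0.23). Its lowest value, was in vehicle replicate 1, the library with the highest Pfkfb3. Pfkfb3 made up 85.1%, 51.5% and 77.5% of the counts of the pair in vehicle libraries and 64.7%, 61.3% and 67.5% in farnesol libraries.

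**Figure D3:**
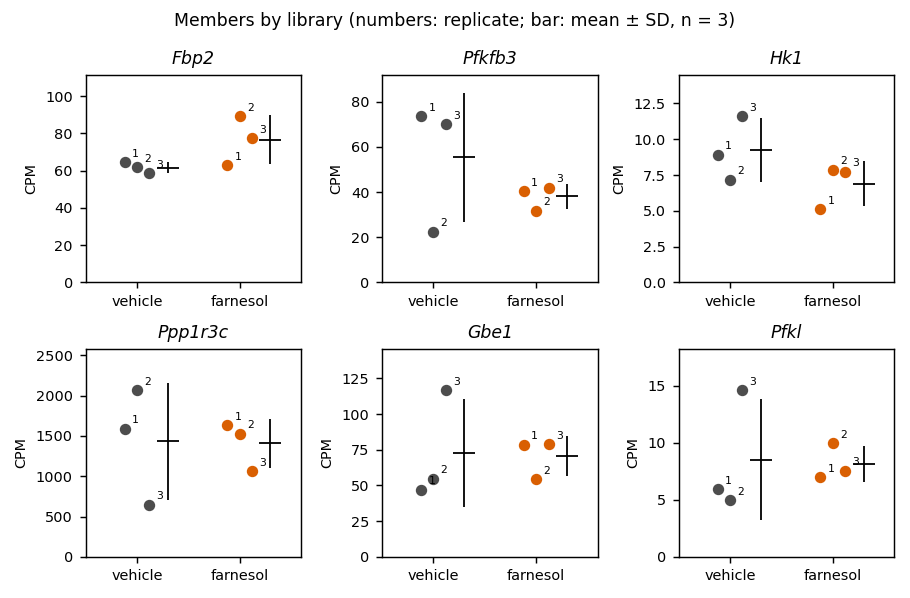
CPM of 6 members by library (y axis from 0), points numbered by replicate, with the mean and SD of 3 libraries as a bar beside each group. The vehicle libraries of Pfkfb3, Ppp1r3c, Gbe1 and Pfkl spread over a wider range than the farnesol libraries, and for Fbp2 the reverse holds.

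Among enzymes that branch from glycolysis, Fbp2 (chromosome 13, 62836884 to 62858400), the muscle fructose bisphosphatase that works against phosphofructokinase, had the smallest p of all members. It was measured at 64.4, 62.0 and 58.6 CPM with vehicle and at 62.9, 89.3 and 77.4 CPM with farnesol. Farnesol replicates 2 and 3 lay above all vehicle libraries, while farnesol replicate 1 lay between vehicle replicates 1 and 2. The fold was 1.24 (95% interval 0.977 to 1.58), a log2 fold change of 0.31 (SE 0.17, edgeR adjusted p = 0.99999). The log2 fold change was 0.19 without farnesol replicate 2 and 0.43 without farnesol replicate 1 (edgeR adjusted p = 0.9997). Gpd1, the cytosolic glycerol 3-phosphate dehydrogenase that passes electrons to mitochondria and feeds lipid synthesis, lay at 237, 275 and 192 CPM and at 266, 276 and 196 CPM (0.07, SE 0.17). Adipocytes also hold Gpd1. The summed levels of their markers, given above, overlapped between the groups. Of the 8 markers, 4 (Cidec, Lep, Plin1 and Retn) did not overlap and were higher with farnesol, and the others overlapped. Over all genes 8.82% did not overlap. Of the 8, 0 passed an adjusted p of 0.05 in edgeR. The part of adipocytes in the Gpd1 values was not tested. In bulk muscle fewer cells of a type and less RNA per cell cannot be told apart.

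Of the 12 tested genes of glycogen metabolism 3 had a log2 fold change above 0 and 9 below, with a median of −0.04, and none passed. This split was not stable, at 6 and 6 with total counts as the only scaling and also without vehicle replicate 2, vehicle replicate 3 or farnesol replicate 3. The symbols Pgm1 and Pgm2 need care, since each is also listed as a synonym of the other gene in RefSeq. In the files the row Pgm2 lies next to Efcab7 and Ror1, on chromosome 4, where RefSeq places the gene it now calls Pgm1, the main phosphoglucomutase of muscle. The values are given under the symbols of the files, without coordinates. The row Pgm2 was at 844, 772 and 564 CPM and at 849, 680 and 571 CPM (−0.05, SE 0.18), and in both groups the third replicate was the lowest. The row Pgm1 held 0 to 9 counts per library and was not tested.

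On the way into glycogen, glycogenin (Gyg) primes the chain, Ugp2 makes UDP-glucose, Gys1 is the muscle glycogen synthase and Gbe1 adds the branches. Gys1 was measured at 365, 486 and 467 CPM with vehicle and at 452, 466 and 472 CPM with farnesol (log2 fold change 0.08, SE 0.15). The farnesol values lay inside the vehicle range. Gbe1 (chromosome 16, 70313949 to 70569720) was measured at 46.9, 54.6 and 116.5 CPM and at 78.4, 54.3 and 78.9 CPM. Vehicle replicate 3 was the highest by far, and the log2 fold change of −0.05 (SE 0.34) was 0.47 without it (edgeR adjusted p = 0.9997) and −0.28 without vehicle replicate 1. Ugp2, at 368, 366 and 505 CPM and at 411, 343 and 404 CPM, was also highest in vehicle replicate 3 (−0.10, SE 0.16). Gyg gave −0.06 (SE 0.16).

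In glycogen breakdown the groups overlapped as well. Pygm was measured at 7028, 7926 and 5265 CPM in vehicle and at 5962, 7651 and 5314 CPM in farnesol libraries (log2 fold change −0.10, SE 0.19). In both groups replicate 3 was the lowest. Of the phosphorylase kinase subunits, the catalytic Phkg1 gave 0.17 (SE 0.19), the regulatory alpha subunit Phka1 −0.02 (SE 0.17) and the beta subunit Phkb −0.03 (SE 0.15). Phka1 was at 369 to 413 CPM with vehicle and at 514, 300.4 and 358 CPM with farnesol, so that farnesol libraries were both the highest and the lowest.

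Glycogen is held to its enzymes by targeting proteins: Ppp1r3a and Ppp1r3c bring protein phosphatase to the particle, where it activates the synthase, and Stbd1 links glycogen to autophagy. Ppp1r3c (chromosome 19, 36731731 to 36736604) was measured at 1592, 2066 and 645 CPM with vehicle and at 1632, 1530 and 1064 CPM with farnesol. It had the widest spread among the abundant members: its highest library stood 3.20-fold above its lowest, and both were vehicle libraries. The log2 fold change of −0.03 (SE 0.43) left a 95% interval of the fold from 0.478 to 2.02, and it became 0.33 when vehicle replicate 2 was left out and −0.38 when vehicle replicate 3 was. Ppp1r3a was measured at 224, 292 and 238 CPM and at 159, 241 and 276 CPM (−0.16, SE 0.18), with farnesol replicate 1 the lowest. Stbd1 kept to 28.1 to 36.8 CPM in all 6 libraries (0.01, SE 0.19).

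The sequences just before the annotated start of Ppp1r3c, Ppp1r3a and Fbp2 are shown because these were the most variable targeting gene, the other phosphatase-targeting member and the member with the smallest p. They are the 250 bases up to the start, from RefSeq on GRCm38.p6 (the chromosomes of mm10), 5′ to 3′ on the strand of the gene. Capitals mark ACGTG on either strand, the core of hypoxia response elements, and a MEF2-like site, CTA and TAG with 4 bases between them.
Ppp1r3c (chr19:36736605-36736854, minus strand): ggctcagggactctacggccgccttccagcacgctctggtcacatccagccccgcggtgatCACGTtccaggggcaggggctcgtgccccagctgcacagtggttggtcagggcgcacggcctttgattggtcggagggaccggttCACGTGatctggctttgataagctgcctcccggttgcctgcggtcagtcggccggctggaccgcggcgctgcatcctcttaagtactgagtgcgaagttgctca
Ppp1r3a (chr6:14755275-14755524, minus strand): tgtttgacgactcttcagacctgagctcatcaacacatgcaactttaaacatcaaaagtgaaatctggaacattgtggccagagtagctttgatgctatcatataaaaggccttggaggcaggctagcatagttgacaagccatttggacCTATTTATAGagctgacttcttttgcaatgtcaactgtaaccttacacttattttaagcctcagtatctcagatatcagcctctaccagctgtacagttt
Fbp2 (chr13:62858401-62858650, minus strand): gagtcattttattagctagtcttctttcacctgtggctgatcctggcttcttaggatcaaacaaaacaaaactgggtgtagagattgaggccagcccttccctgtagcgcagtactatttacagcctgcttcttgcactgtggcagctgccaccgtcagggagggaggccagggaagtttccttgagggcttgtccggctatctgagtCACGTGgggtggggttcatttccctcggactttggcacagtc

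The ACGTG core matched 3 times in the Ppp1r3c window and 2 times in that of Fbp2. In both genes the palindrome of 6 capitals counts once on each strand and is also an E-box. The Ppp1r3a window held 1 MEF2-like match and no ACGTG. Of the 46 windows that RefSeq lists for 31 of the members, 32.6% held ACGTG, against 16.6% of all 32851 windows. For the MEF2-like site the shares were 6.52% (3 windows) and 3.20%. The windows of members and all windows were not matched for base composition, and the difference in shares was not tested. Windows of 1 gene can overlap, and a match is a description of letters, not a bound site.

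Single libraries stood further apart than the group means did for several members. With each library set against the mean of the other 5, vehicle replicate 3 was over 1.5-fold higher for 4 members (Pfkl 2.06-fold, Gbe1 1.86-fold, Pfkfb3 1.67-fold and Hk1 1.58-fold) and at 0.409-fold for Ppp1r3c. It held the lowest value of 11 of the 32 members and the highest of 6. Those lowest there included the muscle forms Pgam2 (0.790-fold) and Eno3 (0.800-fold), the heart-type Ldhb (0.777-fold), Gpd1 (0.770-fold) and the row Pgm2 (0.759-fold). Which library is lowest depends in part on the scaling, since this library had the largest TMM factor. In unscaled counts Gpd1 took 2271 of 10354759 there and 1897 of 9895700 in farnesol replicate 3. The members took 3.38% of its counts, against 3.29% and 3.23% in vehicle replicates 1 and 2. In this same library the fast fibre markers had their lowest sum and the macrophage markers their highest, as given above. Vehicle replicate 2 stood at 0.435-fold for Pfkfb3 and 1.598-fold for Ppp1r3c, so for both genes vehicle replicates 2 and 3 lay on opposite sides of the other libraries' mean. It was also at 0.551-fold for Pfkl and 0.602-fold for Pgam1. Vehicle replicate 1 stood at 1.78-fold for Pfkfb3, the highest of the 6 libraries, and at 0.612-fold for Gbe1 and 0.618-fold for Pfkfb1. Farnesol replicate 1 held the highest value of 10 members and none above 1.39-fold, and farnesol replicate 3 stayed within 0.713-fold to 1.34-fold for all 32.

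**Figure D4:**
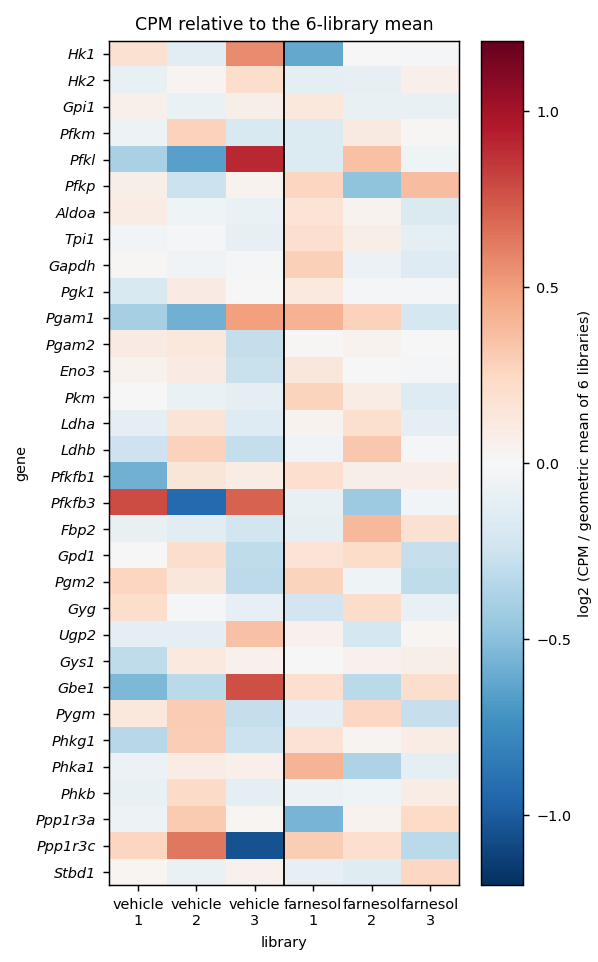
Each tested member (rows, in pathway order) in each library (columns), coloured by log2 of its CPM over the geometric mean of the 6 libraries, red above and blue below. The strongest colours are in the vehicle columns, at Pfkfb3, Pfkl, Gbe1 and Ppp1r3c, and in no row do the 3 farnesol cells all lie above or all below the 3 vehicle cells.

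The rest of the pathway gave a like picture. Of 49 further genes of glycolysis, lactate and pyruvate transport and glycogen metabolism, 35 were tested, 17 with a log2 fold change above 0 and 18 below, with a median of −0.02, and 0 passed an adjusted p of 0.05 in edgeR. Of the 35, 1 had an unadjusted p under 0.05 (3.01% over all genes) and 2 had groups that did not overlap (8.82% over all genes), so neither count stood above the background. The 1 was Pgm5, a relative of the phosphoglucomutases known as a protein of muscle cell adhesions. It stood at 16.7, 15.6 and 11.0 CPM with vehicle and 16.3, 19.3 and 27.0 CPM with farnesol (log2 fold change 0.53, SE 0.25, edgeR adjusted p = 0.99999). Phkg2, 1 of the 2 without overlap and the liver-type catalytic subunit of phosphorylase kinase, was at 2.20, 2.02 and 1.95 CPM and at 4.58, 2.85 and 3.71 CPM (0.85, SE 0.48), with 31.3 counts per library on average. Gsk3b, the other and a kinase that inactivates glycogen synthase, was at 226, 228 and 254 CPM and at 180, 218 and 204 CPM (−0.23, SE 0.15). The subunits of the mitochondrial pyruvate carrier, Mpc1 (0.22, SE 0.16) and Mpc2 (0.15, SE 0.15), had overlapping groups.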

How the data were processed

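Total RNA of 6 gastrocnemius samples was sequenced after library preparation with a kit that the labels name Quant-Seq. The deposited values are raw counts by gene symbol, in a separate table for each library. Bowtie2, bedtools and mm10 are named in the submitters' processing notes. For versions, annotation, strand handling and the treatment of repeated matches or copied reads, the sources used here give nothing. Each table has 23282 rows, and rows of the same symbol were summed.

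The counts of all 6 libraries were tested with edgeR 4.0.16 in R 4.3.3 (filterByExpr, TMM, robust quasi-likelihood fits, Benjamini-Hochberg adjustment over the 11674 genes tested). In simulated counts for the same genes this fit recovered 64% of 2-fold and 96% of 4-fold changes, with 5 false calls. There 100 genes were changed at each fold, all from genes with a mean over 5 CPM. These shares hold for that setting and do not give the power for a lone changed gene or for genes of lower level. A 2-fold change could thus be missed. Standard errors follow from the fold change and its F statistic. DESeq2 1.42.0 and limma-voom (limma 3.58.1), other scalings and filters, leaving out each library and a replicate block were the alternatives.

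The 34 members and all lists were chosen with earlier results of these data known, so lists are described by counts and medians. The rule for values in every library took members with a p under 0.05 or separated groups, the 4 highest per length and the isoenzyme groups, and the other members shown so were chosen after their values had been seen. From each list of other pathway genes it took a p under 0.05 or the 3 smallest p, of which 1 gene is not reported here. Library totals and floors (3 counts) cover counting error only. Lengths and shared 50-base windows come from GENCODE vM21, positions and sequences from RefSeq GRCm38.p6.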

Additional observations from a re-analysis of the deposited data

How the results depend on the processing

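In every alternative run, 0 members passed an adjusted p of 0.05, and the smallest adjusted p of any member was 0.194, for Pfkfb3 without vehicle replicate 2. Over all genes, 13 passed in edgeR without the filter on low counts and 0 to 3 with 1 library left out, 3 without vehicle replicate 2. The members' median log2 fold change was 0.01 to 0.06. The labels do not say whether the replicate numbers pair libraries. Deviations of same-numbered libraries over all genes tested had correlations of −0.02 to 0.06, which carry the noise of every gene and cannot exclude a pairing. With the replicate number as a block 0 genes passed and the members' median was 0.05. The smallest adjusted p over all genes in edgeR was 0.131 with the block and 0.563 without it. Members near 0 changed sign under some settings, and the cause was not tested. The log2 fold changes that did so were Pgm2 0.0027, Phka1 0.024, Ppp1r3c 0.064 with total counts, Pfkl 0.059, Gbe1 0.041, Ppp1r3c 0.11, Stbd1 −0.0072 in limma-voom and Pfkl 0.077, Gbe1 0.051, Ppp1r3c 0.11 with the replicate block. With 1 library left out at a time, the members that changed sign ranged over Gpi1 −0.11 to 0.0073, Pfkm −0.13 to 0.11, Pfkl −0.33 to 0.58, Pfkp −0.030 to 0.35, Aldoa −0.048 to 0.11, Gapdh −0.093 to 0.14, Pgk1 −0.016 to 0.12, Pgam2 −0.096 to 0.096, Eno3 −0.026 to 0.15, Ldha −0.00013 to 0.18, Pfkfb1 −0.0010 to 0.32, Gpd1 −0.057 to 0.20. The other such members ranged over Pgm2 −0.22 to 0.071, Gyg −0.19 to 0.037, Ugp2 −0.18 to 0.073, Gys1 −0.041 to 0.16, Gbe1 −0.28 to 0.47, Pygm −0.26 to 0.038, Phka1 −0.27 to 0.14, Phkb −0.093 to 0.088, Ppp1r3a −0.33 to 0.039, Ppp1r3c −0.38 to 0.33, Stbd1 −0.12 to 0.083. The members that kept their sign ranged over Hk1 −0.57 to −0.22, Hk2 −0.17 to −0.021, Tpi1 0.028 to 0.18, Pgam1 0.064 to 0.67, Pkm 0.036 to 0.24, Ldhb 0.028 to 0.36, Pfkfb3 −0.92 to −0.29, Fbp2 0.19 to 0.43 and Phkg1 0.056 to 0.40. Of the tested members Hk1, Pfkl and Pgam1 had the fewest counts, with means of 88.0 to 106 per library, but the SE did not follow depth alone, at 0.27 for Pfkp with 142 counts and 0.43 for Ppp1r3c with 15288.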
